A study of Mus musculus with 23 samples.

Results

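The pyruvate dehydrogenase complex (PDH) and the enzymes that switch it off and on were followed at the level of mRNA in the brown adipose tissue (BAT) of 23 mice. The 10 genes, out of 14651 in the table of normalized counts, were taken by symbol. They are Pdha1 and Pdhb, which encode the E1 alpha and beta subunits; Dlat, the E2 subunit; the kinases Pdk1, Pdk2, Pdk3 and Pdk4; the phosphatase catalytic subunits Pdp1 and Pdp2; and Pdpr, the regulatory subunit of the phosphatase. All 10 were found. On GRCm38, with GENCODE release M21, they lie at chrX:160122209-160138413 (Pdha1), chr14:8165996-8173025 (Pdhb), chr9:50634633-50659780 (Dlat), chr2:71873224-71903858 (Pdk1), chr11:95026258-95041354 (Pdk2), chrX:93764607-93832201 (Pdk3), chr6:5483351-5496309 (Pdk4), chr4:11958184-11966452 (Pdp1), chr8:104591451-104599026 (Pdp2) and chr8:111094630-111137074 (Pdpr). Control mice (n = 6 at room temperature, RT, and n = 5 at 4°C) had the genotype Mcu[fl/fl], and BAT-Mcu-KO mice (n = 6 at each temperature) had the genotype Mcu[fl/fl];Ucp1-Cre, so the floxed Mcu allele was carried by every animal and Cre by the knockouts alone. Cre was driven by the Ucp1 promoter, which is active in brown adipocytes, so other cells of the tissue kept Mcu. All mice were males of 8 to 12 weeks on a C57BL/6 background. Per the paper's methods, the floxed line came from embryonic stem cells of mixed strain and was crossed to C57BL/6J, short of full homogeneity. Mice of the cold groups spent 6 h at 4°C, housed singly and without bedding. Unless stated otherwise for an experiment, food was withheld at 4°C. In the paper's blots of PDH phosphorylation and ATF4 and its plasma assays, mice at both temperatures were fasted for 6 h. For the RT mice of these libraries the feeding state is not given in the sources used here. Effects of cold and of food withdrawal therefore cannot be told apart.

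PDH sits in the mitochondrial matrix and turns pyruvate into acetyl-CoA, the entry of carbohydrate carbon into the tricarboxylic acid cycle and, through citrate, into fatty acid synthesis. Phosphorylation of E1 alpha by a kinase of the PDK family inactivates the complex, and a phosphatase reactivates it. PDP1 is stimulated by calcium in the matrix whereas PDP2 is not, which is why a channel that brings calcium into mitochondria, the uniporter MCU, has long been discussed as a regulator of PDH. Pdk4 is the kinase classically raised by fasting in muscle and other oxidative tissues, when fatty acids replace glucose as fuel. The comparisons asked how these transcripts answered cold in BAT with and without Mcu, and how the balance between the kinase isoforms and between the calcium-sensitive and the calcium-insensitive phosphatase stood in each group.

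Depth was 7129271 to 21006347 reads per library. Mcu itself was at 109 ± 22.5 (SD, n = 6) normalized counts in control and 35.1 ± 10.03 (n = 6) in BAT-Mcu-KO at RT, with no overlap of the groups at either temperature. All 8 brown adipocyte markers were read in all 23 libraries, and Ucp1, the uncoupling protein, lay between 50590 and 198043 normalized counts. With cold, 6 of these 8 were called in control (3 higher, 3 lower) and 4 in BAT-Mcu-KO (3 higher, 1 lower). Skeletal muscle transcripts varied widely, and the summed level of 12 markers ran from 14.9 to 64194. In 5 libraries it exceeded 20000 (control 4°C mice 2 and 5, and BAT-Mcu-KO RT mice 3, 4 and 6). Among the 12 markers, Mylpf was read in all 23 libraries. Acta1 and Atp2a1 were at 0 in 1 library each, and Myh2, Pvalb and Myoz1, the most often at 0, in 5 each. Markers of other cells moved with temperature too. The 4 endothelial markers summed to medians of 3249 at RT and 5548 at 4°C in control mice, and to 3121 and 5109 in the knockouts, with 2 of 4 called in each, and Lep and Retn, 2 markers of white adipocytes, to 781 and 316 and to 800 and 476, with 2 and 1 called lower. Of 6 macrophage markers 3 were called higher with cold in BAT-Mcu-KO and none in control, and none of 5 blood markers in either. The interaction called none of the 6 macrophage markers. What these cells contributed to the 10 genes was not tested. Cold moved a large part of the transcriptome. In control mice 46% of all genes passed an adjusted p of 0.05, 3269 higher and 3466 lower, and with libraries scaled to their 75th percentile instead the split was 2644 higher and 4281 lower, as this scaling put the median of all genes at -0.13 rather than -0.02 (log2). In BAT-Mcu-KO mice 43.3% passed.

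Before the values, the promoters of the 4 regulators that changed in both genotypes are shown, since 2 of these genes rose with cold and 2 fell. Each stretch, from RefSeq on GRCm38.p6, ends at the base before the first annotated start site of the gene, and reads 5′ to 3′ on the strand of the gene. They lie at chr6:5496310-5496528 (minus strand) for Pdk4, chr8:104591222-104591450 (plus) for Pdp2, chr11:95041372-95041621 (minus) for Pdk2 and chr2:71872974-71873223 (plus) for Pdk1. Capitals mark matches to motifs searched on both strands. These were TGACG, known as the core of the cAMP response element, the E-box CACGTG, the box CCAAT, the Sp1 core GGGCGG and the TATA box TATAAA. The FOXO site GTAAACA, the nuclear receptor core AGGTCA and the ERR site AAGGTCA, which contains the core before it, were searched in the same way.
Pdk4: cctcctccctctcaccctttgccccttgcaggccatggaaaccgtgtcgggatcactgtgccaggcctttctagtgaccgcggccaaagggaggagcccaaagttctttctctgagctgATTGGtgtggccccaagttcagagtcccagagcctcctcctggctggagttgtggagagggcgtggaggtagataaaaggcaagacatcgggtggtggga
Pdp2: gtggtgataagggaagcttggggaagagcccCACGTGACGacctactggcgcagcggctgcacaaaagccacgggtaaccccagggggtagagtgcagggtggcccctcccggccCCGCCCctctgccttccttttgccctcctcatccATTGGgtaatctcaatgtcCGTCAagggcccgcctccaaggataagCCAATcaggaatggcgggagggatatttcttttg
Pdk2: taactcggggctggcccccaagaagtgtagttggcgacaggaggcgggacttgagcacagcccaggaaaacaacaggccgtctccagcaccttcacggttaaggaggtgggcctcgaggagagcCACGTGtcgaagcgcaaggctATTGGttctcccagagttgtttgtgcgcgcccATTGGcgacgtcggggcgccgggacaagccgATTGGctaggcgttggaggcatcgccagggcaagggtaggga
Pdk1: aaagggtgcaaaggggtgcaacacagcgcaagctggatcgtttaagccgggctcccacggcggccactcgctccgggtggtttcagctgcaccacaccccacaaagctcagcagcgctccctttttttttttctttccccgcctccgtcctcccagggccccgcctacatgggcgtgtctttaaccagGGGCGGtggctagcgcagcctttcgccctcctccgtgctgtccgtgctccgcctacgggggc

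Pdk4 held 1 CCAAT box, on the opposite strand, and none of the other motifs. Pdp2 held an E-box that overlaps a TGACG, a second TGACG and a CCAAT box on the opposite strand, a further CCAAT and 1 Sp1 match. Pdk2 carried 3 CCAAT boxes and an E-box, and Pdk1 a single Sp1 match upstream of its start. Over windows of 250 bases before to 50 after the start, which 9 of the 10 genes had in RefSeq (Pdp1 was the exception), TGACG stood in Dlat, Pdha1, Pdhb, Pdk2, Pdp2 and Pdpr, that is in 6 of 11 windows, against 20.8% of 32851 windows of all genes. In Pdk2 this match lay after the start and so outside the stretch shown. The E-box was found in Pdk2, Pdp2 and Pdpr (7.15% of all windows), CCAAT in Pdhb, Pdk2, Pdk3, Pdk4 and Pdp2 (37.4%), and GGGCGG in Dlat, Pdhb, Pdk1, Pdk3, Pdp2 and Pdpr (35.7%). The nuclear receptor, ERR, FOXO and TATA motifs, which 16.3%, 4.72%, 3.65% and 13.6% of windows held, were in none of the 11. The 11 windows had 40.3% to 76.7% GC and 2 to 47 CpG, beside medians of 52.7% and 7 over all windows. All but the second window of Pdk1 were above the median in GC. The shares of all windows were not matched for base composition. A match describes the letters, and nothing was measured of binding here.

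Per kb of exon, the E1 subunit Pdha1 and the kinase Pdk4 were the most abundant of the 10 at RT. In control mice Pdha1 stood at 4880 ± 414 (SD, n = 6) and Pdk4 at 4876 ± 595 normalized counts per kb, with overlapping ranges, above 99.3% and 99.2% of the genes with a known length. Pdhb followed at 3086 ± 191, Dlat at 1933 ± 420 and Pdk2 at 1565 ± 78.1, the ranges of Dlat and Pdk2 overlapping. Next came Pdp2 at 248 ± 47.0, Pdk1 at 172 ± 47.1 and Pdpr at 134 ± 26.4, each overlapping its neighbour in this order. Pdp1, at 20.3 ± 3.91 per kb, and Pdk3, at 9.42 ± 1.73, were the lowest and overlapped neither each other nor Pdpr. BAT-Mcu-KO at RT had the same order except that Pdk4 (5388 ± 450) stood ahead of Pdha1 (4951 ± 763), again with overlap. With the longest coding transcript as length, Pdhb became the most abundant at RT (7876 ± 488 per kb in control), followed by Pdha1 and Pdk4. At 4°C Pdk4 stood alone at the top with either length, at 12182 ± 1827 per kb in control (n = 5) and 11246 ± 2713 in BAT-Mcu-KO (n = 6), above Pdha1 (4295 ± 803 and 4294 ± 357) without overlap.

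**Figure D1:**
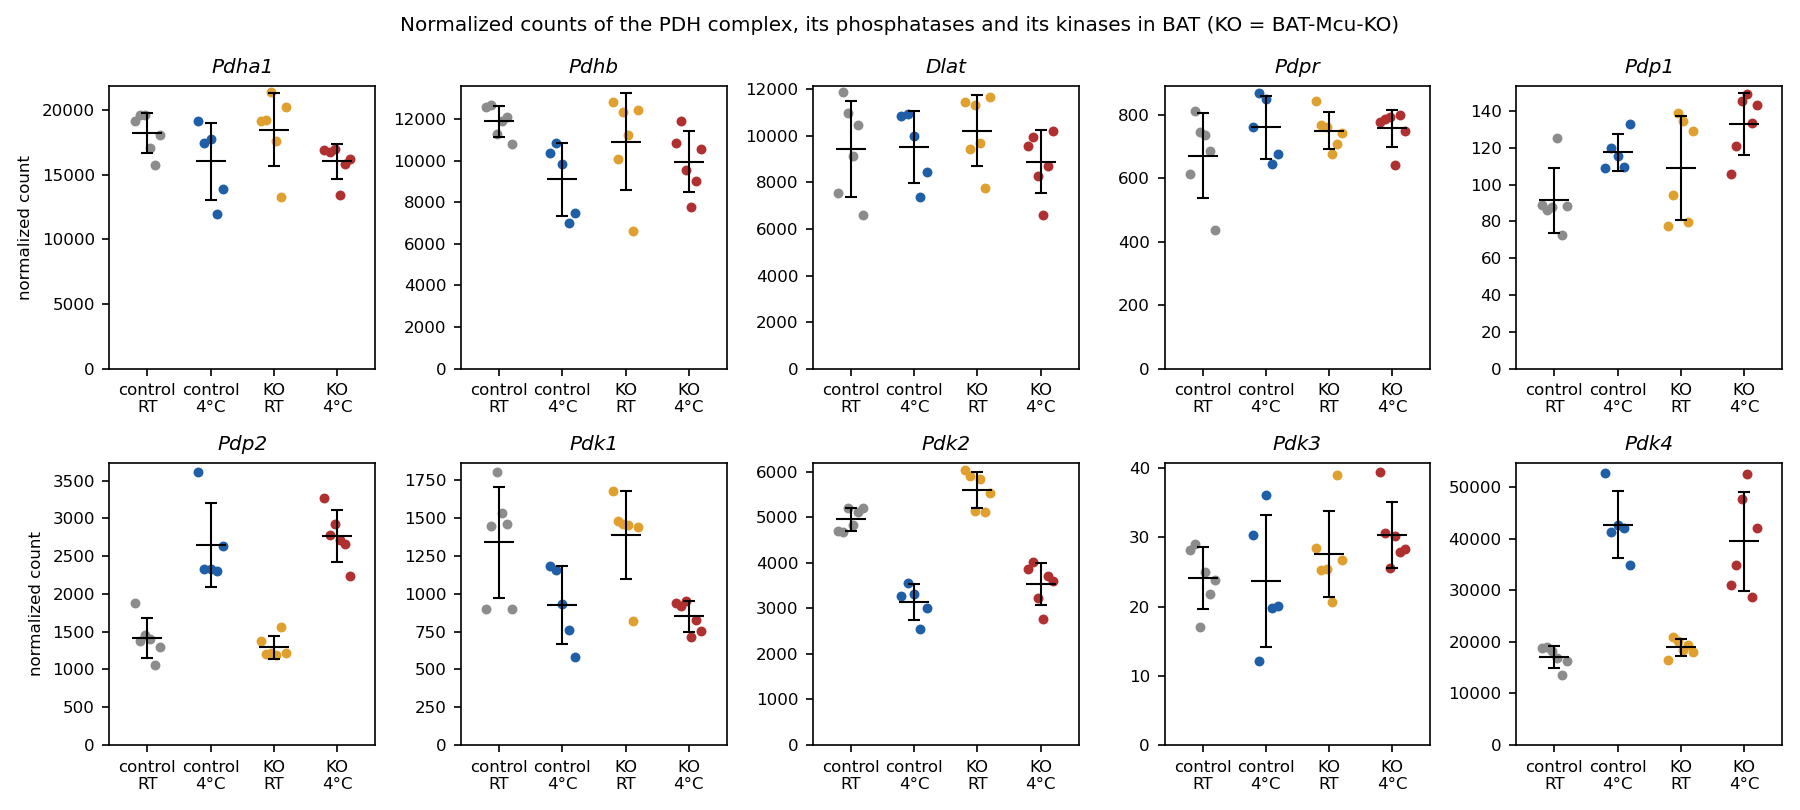
Normalized counts of the 10 genes, 1 point per mouse, with the mean and SD of each group as a bar; each panel has its own vertical axis from 0. Pdk4 and Pdp2 sit higher and Pdk2 lower at 4°C with no overlap between temperatures, while in no panel are the genotypes separated.

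The clearest response to cold was a shift among the kinases, with Pdk4 up and Pdk2 and Pdk1 down, in both genotypes. Per kb, Pdk4 was the most abundant kinase already at RT. Pdk4, on chromosome 6, had 13521, 17548 and 18997 normalized counts (lowest, median and highest) in control mice at RT and 52832, 41248, 42711, 42064 and 34994 at 4°C. Every cold mouse exceeded every RT mouse by a wide margin. In BAT-Mcu-KO mice the lowest, median and highest values were 16500, 18904 and 20961 at RT and 28652, 38473 and 52505 at 4°C, again without overlap. On the log2 scale Pdk4 rose by 1.32 (SE 0.14, limma adjusted p = 1.6e-08) in control and by 1.03 (SE 0.13, adjusted p = 4.2e-07) in BAT-Mcu-KO, that is 2.49-fold and 2.04-fold. The difference between these rises, -0.29 (95% interval -0.67 to 0.10), did not pass the test (adjusted p = 0.863). As bulk tissue was read, a change in transcripts per brown adipocyte and a change in the share of cells that carry them cannot be told apart, for this gene or any below.

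Pdk2, the kinase found in most tissues, moved the other way. Control mice at RT ranged from 4667 to 5201 normalized counts with a median of 4971, and those at 4°C had 3279, 3557, 3307, 2542 and 3002. BAT-Mcu-KO mice had a median of 5682 at RT (range 5105 to 6025) and of 3650 at 4°C (2759 to 4024). All cold mice thus lay below all RT mice of their genotype. Pdk2 fell by 0.67 on the log2 scale in both genotypes (SE 0.09 in each; limma adjusted p = 1.8e-06 in control and 8.1e-07 in BAT-Mcu-KO), and the difference between the genotypes in this fall was -0.01 (95% interval -0.27 to 0.26). An antisense gene, Gm11513, overlaps Pdk2 without sharing exons, and the counting ignored strand.

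Pdk1, a kinase known as a target of hypoxia signalling, also fell, but its groups overlapped. Control RT mice had between 897 and 1806 normalized counts (median 1452), and the cold ones 1183, 1156, 933, 760 and 581. BAT-Mcu-KO mice ranged from 823 to 1677 at RT (median 1457) and from 714 to 949 at 4°C (median 875). Mice 1 and 6 of the control RT group and mouse 5 of the BAT-Mcu-KO RT group were as low as cold mice, and the other RT mice lay above all cold mice of both genotypes. The log2 change was -0.54 (SE 0.20, limma adjusted p = 0.0262) in control mice, and in the knockouts it was -0.68 (SE 0.19, limma adjusted p = 0.00429). In control the call rested on few animals: without mouse 2, 3 or 4 at RT, or mouse 4 or 5 at 4°C, the adjusted p was 0.0502, 0.0721, 0.0560, 0.0676 and 0.111, with log2 changes from -0.38 to -0.51. Without the 5 libraries rich in muscle transcripts the log2 change of Pdk1 in control was -0.46 (limma adjusted p = 0.107).

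Pdk3, the kinase best known from testis and brain, was scarce, with 8 to 60 reads per library. Its mean was 24.1 ± 4.43 in control at RT, 23.7 ± 9.48 at 4°C, 27.6 ± 6.19 in BAT-Mcu-KO at RT and 30.4 ± 4.81 at 4°C. No difference was detectable at this depth, and the 95% intervals of the cold changes ran from -0.58 to 0.39 and from -0.32 to 0.61 (log2).

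With these opposite changes the Pdk4 part of the kinase pool, the largest already at RT, grew further in the cold. Of the sum of Pdk1 to Pdk4 per kb, Pdk4 made up 73.4% ± 3.22 (SD, n = 6) in control mice at RT and 91.5% ± 1.22 (n = 5) at 4°C, and 73.3% ± 2.73 (n = 6) and 89.6% ± 3.12 (n = 6) in BAT-Mcu-KO. The highest RT mouse was at 76.9% and the lowest cold mouse at 86.4%. Pdk2 went from 23.8% ± 2.91 to 7.54% ± 1.17 in control mice, and in the knockouts from 24.1% ± 2.31 to 9.42% ± 2.87. The Pdk1 share was 2.62% ± 0.730 and 0.883% ± 0.178 in control at RT and 4°C, and 2.44% ± 0.551 and 0.914% ± 0.240 in BAT-Mcu-KO, and Pdk3 stayed under 1% in every mouse, its highest share being 0.211%. The ratio of Pdk4 to Pdk2 per kb was 3.13 ± 0.488 at RT and 12.4 ± 2.17 at 4°C in control mice, and the knockouts had 3.07 ± 0.391 and 10.5 ± 4.06. The kinase sum itself stood at 6623 ± 556 and 13302 ± 1886 normalized counts per kb in control at RT and 4°C, and at 7345 ± 415 and 12482 ± 2580 in BAT-Mcu-KO. These shares are given without a test, and with the longest coding transcript as length the Pdk4 share was 66.3% and 88.5% in control.

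**Figure D2:**
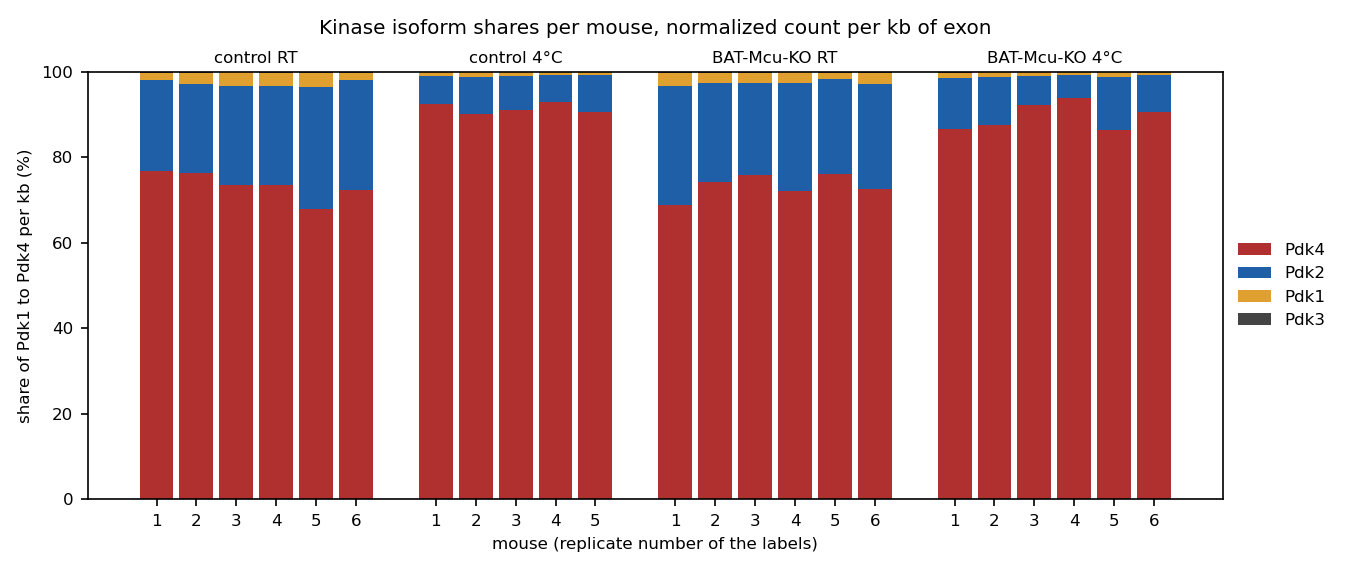
Share of each kinase in the sum of Pdk1 to Pdk4 (percent, normalized count per kb of exon), 1 stacked bar per mouse, by group. The Pdk4 segment covers 68.0% to 76.9% of the bar in the RT mice and 86.4% to 93.9% in the cold mice, and the 2 cold groups overlap.

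Among the phosphatases, Pdp2, the isoform that does not need calcium, rose past the test in both genotypes. Pdp1 was also higher at 4°C in both, without passing. For Pdp2, control mice had 1061, 1392 and 1880 normalized counts (lowest, median, highest) at RT and 3613, 2331, 2331, 2309 and 2641 at 4°C. In BAT-Mcu-KO these were 1192, 1214 and 1562 at RT and 2243, 2743 and 3275 at 4°C. The cold mice of each genotype were all above its RT mice, and mouse 1 stood above the other 4 cold control mice. Pdp2 rose by 0.90 on the log2 scale (SE 0.13, limma adjusted p = 2.4e-06) in control and by 1.10 (SE 0.12, adjusted p = 6.2e-08) in BAT-Mcu-KO, or 1.87-fold and 2.14-fold, and the difference of 0.19 (95% interval -0.17 to 0.55) did not pass the test.

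Pdp1, the calcium-stimulated isoform, was far scarcer, at 54 to 172 reads per library. Values were 72.5 to 125 (median 88.1) in control at RT, then 109, 120, 116, 109 and 133 at 4°C. BAT-Mcu-KO mice had 77.7 to 139 (median 112) at RT and 106 to 149 (median 138) at 4°C. The groups overlapped in both genotypes. The log2 change with cold was 0.37 (SE 0.16, limma adjusted p = 0.0614) in control mice, and in the knockouts it was 0.32 (SE 0.15, limma adjusted p = 0.102), so neither passed. In BAT-Mcu-KO at RT the values fell into 2 sets that went with the muscle transcripts: 129 to 139 in the 3 libraries over 20000 in summed muscle markers and 77.7 to 94.1 in the other 3. In control at 4°C the 2 libraries over 20000 had 120 and 133, the other 3 between 109 and 116. Without these 5 libraries Pdp1 rose with cold in BAT-Mcu-KO by 0.65 (adjusted p = 0.00432). The cold BAT-Mcu-KO mice had up to 149 Pdp1 counts and at most 11546 in muscle markers. Over all 23 libraries, within groups, the slope of Pdp1 on the log2 of the summed markers was 0.02 log2 units per doubling. Its unadjusted limma p was 0.135 and its adjusted p 0.934, where 1.52% of genes passed. In this slope a doubling among libraries low in muscle transcripts weighed as much as one among the rich libraries. The part of muscle tissue in the Pdp1 values was not tested.

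The ratio of Pdp2 to Pdp1 per kb was 12.4 ± 2.56 (SD, n = 6) in control at RT and 17.99 ± 4.61 (n = 5) at 4°C, and 10.2 ± 3.76 and 16.9 ± 4.20 in BAT-Mcu-KO (n = 6 each). The calcium-insensitive isoform therefore outnumbered the other in every one of the 23 mice, the lowest ratio being 6.91. The log2 ratio of normalized counts increased with cold by 0.53 in control (exact permutation test over mice, two-sided p = 0.0130) and by 0.78 in BAT-Mcu-KO (exact permutation p = 0.0152), although single mice overlapped; 0.00216 is the smallest p these group sizes allow. Between genotypes it differed by -0.34 at RT (exact permutation p = 0.184) and -0.09 at 4°C (exact permutation p = 0.645), and the interaction was 0.25 (exact permutation p = 0.437). Over the 5 tests the Benjamini-Hochberg adjusted values of the cold changes were 0.0379 for each. Without the 5 libraries rich in muscle transcripts the cold change was 0.65 in control (exact permutation p = 0.0357) and 0.35 in BAT-Mcu-KO (exact permutation p = 0.179), and the genotype difference at RT turned to 0.085. The BAT-Mcu-KO result and the RT difference thus did not hold without those libraries, where 3 BAT-Mcu-KO mice were left at RT.

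**Figure D3:**
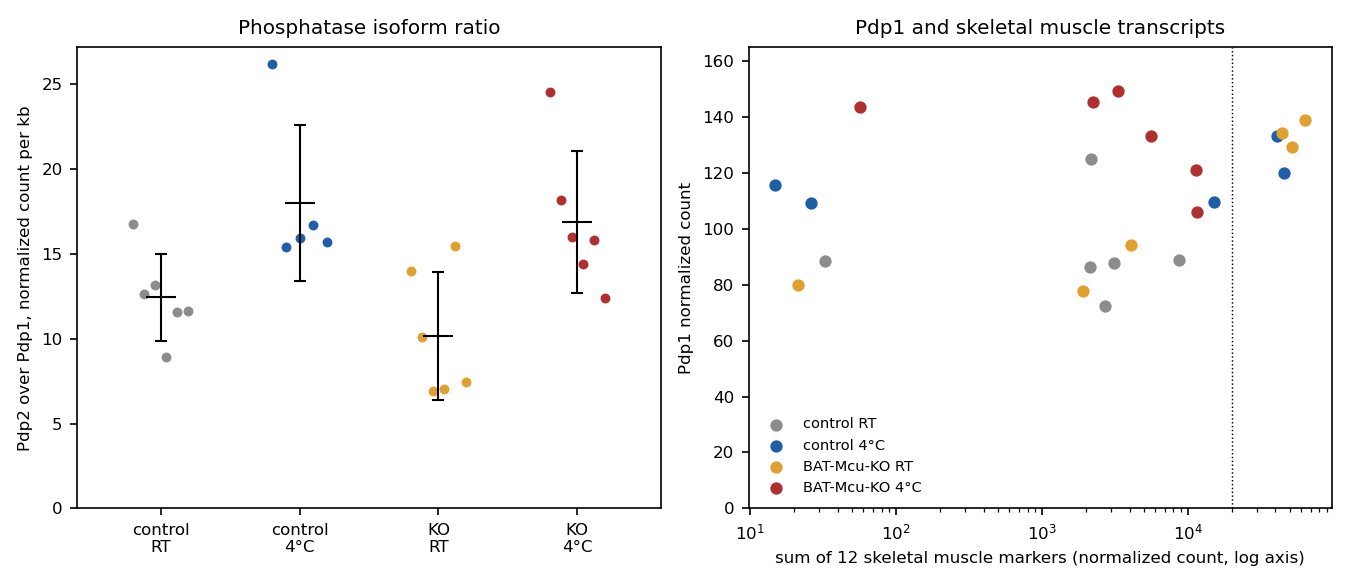
Left, ratio of Pdp2 to Pdp1 (normalized count per kb) per mouse with group mean and SD. Right, Pdp1 normalized count against the summed skeletal muscle markers (log axis) of the same libraries, the dotted line marking 20000; the 3 BAT-Mcu-KO RT libraries beyond the line hold 129 to 139 Pdp1 counts and the 3 before it 77.7 to 94.1.

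Pdpr, whose product is known to restrain PDP1, did not pass the test. It was at 672 ± 133 and 761 ± 100 normalized counts in control at RT and 4°C, with log2 change 0.20 (95% interval -0.05 to 0.44), and at 750 ± 57.8 and 758 ± 58.9 in BAT-Mcu-KO, with log2 change 0.01 (-0.22 to 0.25). Exons of Pdpr overlap those of 9430091E24Rik on the opposite strand. The kinase sum over the sum of Pdp1 and Pdp2 per kb, a rough measure of the transcript balance between inactivating and activating enzymes, was 25.05 ± 2.89 and 27.5 ± 3.77 in control at RT and 4°C, and 29.4 ± 3.501 and 24.6 ± 6.11 in BAT-Mcu-KO, with overlapping ranges. Transcripts do not give the phosphorylation of PDH. In the paper's blots of BAT, 6 h at 4°C had no substantial effect on it with or without Mcu, and loss of MCU had none at either temperature.

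Of the 3 catalytic subunits 1 passed the test, in control mice. Pdha1, the E1 alpha subunit that carries the phosphorylation sites, had 18221 ± 1544 normalized counts in control at RT and 16038 ± 2997 at 4°C, and 18488 ± 2850 and 16033 ± 1335 in BAT-Mcu-KO, and neither log2 change passed (-0.20 and -0.19, limma adjusted p = 0.175 and 0.179). Its exons overlap those of Map3k15 on the other strand. Pdhb, the E1 beta subunit, lay between 10820 and 12701, with a median of 12022, in controls at RT and had 10381, 10855, 9876, 7006 and 7472 at 4°C. All of these cold mice but mouse 2 lay below all RT mice, and the fall of 0.41 on the log2 scale (SE 0.14) passed in control (limma adjusted p = 0.0238). It did not without mouse 4 or mouse 5 at 4°C (adjusted p = 0.0887 and 0.0746), nor without the 5 libraries rich in muscle transcripts (0.0549). In BAT-Mcu-KO the Pdhb log2 change was -0.11 (adjusted p = 0.537), and the test of the difference between genotypes gave 0.29 (95% interval -0.12 to 0.70, adjusted p = 0.871). Dlat, the E2 acetyltransferase, was at 9443 ± 2051 and 9528 ± 1564 in control mice and, in the knockouts, at 10232 ± 1541 and 8897 ± 1342, with log2 changes of 0.03 and -0.20 that did not pass.

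In all, cold in control called 5 of the 10 genes, against the 46% of all genes called. Higher were Pdk4 and Pdp2 (22.3% of all genes) and lower Pdk2, Pdk1 and Pdhb (23.7%). The count was 3 without control mouse 4 or mouse 5 at 4°C. In BAT-Mcu-KO the count was 4 of 10, against 43.3%, with Pdk4 and Pdp2 higher (21.4%) and Pdk2 and Pdk1 lower (21.9%). Called in both with the same direction were 4 of 10, against 34.8% of all genes. Groups that did not overlap were seen for Pdk4 and Pdp2 upward (13% of all genes in control, 12.4% in BAT-Mcu-KO) and for Pdk2 downward (12.3% and 11.9%). These shares are near those of the transcriptome, and the median log2 change of the 10 genes was -0.03 in control and -0.05 in BAT-Mcu-KO, beside -0.02 for all genes in both. The 2 cold comparisons use separate animals.

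**Figure D4:**
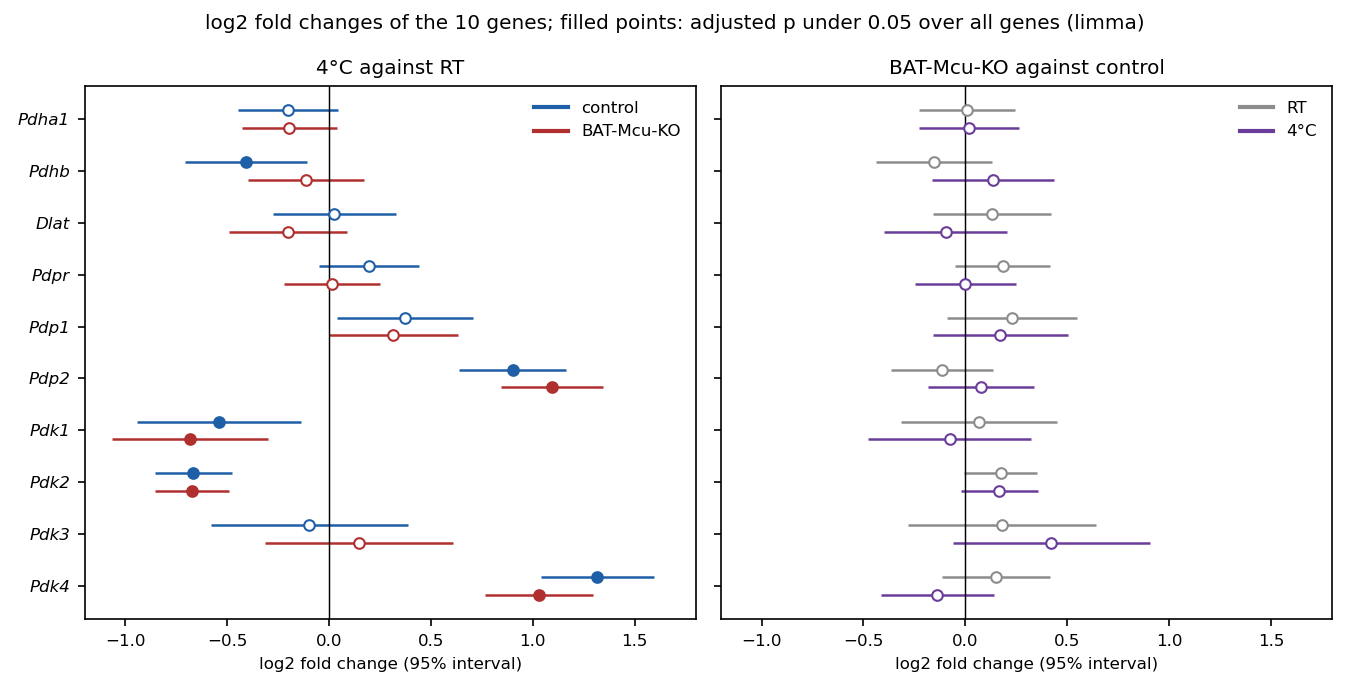
log2 fold changes of the 10 genes with 95% intervals, by cold in each genotype (left) and by genotype at each temperature (right); filled points passed an adjusted p of 0.05 over all 14651 genes. The left panel has 5 filled points for control and 4 for BAT-Mcu-KO, and the right panel none.

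Between genotypes none of the 10 transcripts passed the test at either temperature. At RT the log2 differences between BAT-Mcu-KO and control lay between -0.16 (Pdhb) and 0.23 (Pdp1), and the smallest adjusted p was 0.940, that of Pdk2 at 0.17 (95% interval -0.01 to 0.35). At 4°C they lay between -0.14 (Pdk4) and 0.42 (Pdk3), with a smallest adjusted p of 0.745 for Pdk2, at 0.17 (-0.02 to 0.36). Against the 0.0478% and 0.0751% of all genes that passed, 0 of the 10 did so at either temperature. For none of them were the genotypes without overlap, as they were for 0.218% of all genes at RT and 0.683% at 4°C. No member reached an unadjusted p of 0.05 in either. The intervals bound what was missed for the well-read genes: for Pdp2 they were -0.36 to 0.13 at RT and -0.18 to 0.34 at 4°C, and for Pdha1 -0.23 to 0.24 and -0.23 to 0.26. For Pdp1 they were wider, -0.09 to 0.55 and -0.16 to 0.50, and without the libraries rich in muscle transcripts the difference at RT was -0.11 in place of 0.23. The interaction of genotype and temperature called none of the 10, with 0% of all genes called by limma, 0 by edgeR and 28 genes by DESeq2 (878 had an unadjusted limma p under 0.05).

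Beyond the 10 genes, 1 of the 2 remaining parts of the complex was called, in BAT-Mcu-KO alone, and no difference between genotypes in its response passed. Dld, the E3 subunit, did not pass (log2 change 0.07 in control and 0.15 in BAT-Mcu-KO). Pdhx, the E3 binding protein, rose by 0.28 (SE 0.08, limma adjusted p = 0.00880) in BAT-Mcu-KO and was 0.21 higher in control (limma adjusted p = 0.0549), where it passed without mouse 6 at RT or mouse 4 at 4°C. Of 8 genes for pyruvate supply and other fates of pyruvate, 3 were called in each genotype, against 46% of all genes in control and 43.3% in BAT-Mcu-KO, and the median log2 changes of the 8 were -0.15 and -0.14 beside -0.02 for all genes. Gpt, alanine transaminase, and Pcx, pyruvate carboxylase, fell in both (-0.82 and -0.36 in control, -0.68 and -0.42 in BAT-Mcu-KO), Gpt2 rose in control by 0.83 and Ldhb, a lactate dehydrogenase subunit, in BAT-Mcu-KO by 0.28; these 4 are named after their values were seen. In the other genotype the log2 changes were 0.12 for Gpt2 and 0.14 for Ldhb, and neither passed. The interaction called none of the 8. The mitochondrial pyruvate carrier genes Mpc1 and Mpc2 did not pass in either genotype.

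PDH needs thiamine pyrophosphate on E1 and lipoate on E2, and genes for these cofactors were listed too. Of 7 listed, 6 were in the table, and 5 were called in each genotype, 1 higher and 4 lower, beside the 46% and 43.3% of all genes, and the median log2 changes of the 6 were -0.60 and -0.39. Slc19a2, a thiamine importer, rose by 1.31 and 1.32 (SE 0.22 and 0.21; limma adjusted p = 2.6e-05 and 1.3e-05). Among those that fell in both, named after their values were seen, were Lias, which makes lipoate, and Lipt1, which transfers it. Without control and BAT-Mcu-KO libraries rich in muscle transcripts 3 were called in BAT-Mcu-KO, and without BAT-Mcu-KO mouse 4 at 4°C also 3.

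Of 7 genes of the sister complexes for branched-chain keto acids and 2-oxoglutarate, with their kinase and phosphatase, 5 were called in control (2 higher, 3 lower), or 3 without control mouse 5 at 4°C, and 2 in BAT-Mcu-KO, beside 46% and 43.3% of all genes. The BAT-Mcu-KO count was 4 with quantile normalization, and without the libraries rich in muscle transcripts the counts were 3 and 1. Dbt, the E2 subunit for branched-chain keto acids, rose (0.58 and 0.56) and Bckdk, the kinase that inactivates this complex, fell (-0.51 and -0.40) in both genotypes. In control alone Bckdhb was called higher (1.31) and Bckdha and Dlst lower (-0.20 and -0.24). Their log2 changes in BAT-Mcu-KO had the same signs (0.73, -0.14 and -0.14), and the interaction called none of the 7 genes. Ogdh and the phosphatase Ppm1k passed in neither genotype. These genes are named after their values were seen. Among 12 transcription factors and coactivators known to act on Pdk genes, 8 were called in each genotype, 6 higher and 2 lower, where 22.3% and 21.4% of all genes were higher and 23.7% and 21.9% lower. Ppargc1a, the coactivator of mitochondrial and thermogenic genes, rose by 5.10 and 4.33 on the log2 scale (SE 0.23 and 0.22) and Klf15 by 1.71 and 1.57 (SE 0.17 and 0.16), while Ppara fell by 0.58 and 0.83. Of 8 genes known to answer fasting or insulin, 5 were called in control (2 higher, 3 lower) and 2 higher in BAT-Mcu-KO, beside 46% and 43.3% of all genes, and 3 in control without the libraries rich in muscle transcripts. The 2 that rose in both were Irs2, by 2.51 and 2.46, and Cdkn1a, by 2.00 and 1.82. Angptl4 and Ucp3, targets of PPAR signalling as Pdk4 is, were among those lower in control (-0.60 and -0.83) and did not pass in BAT-Mcu-KO. The interaction called none of the 8 fasting or insulin genes.

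Among 9531 genes with a mean of at least 50 normalized counts, those whose log2 values over the 23 samples were most like Pdk4 were Ddx21 (r = 0.965), Nrbf2 (0.963) and Atp6v1h (0.961), where the shared step with cold fixes most of the likeness. Of deviations from the group means, which remove that step, Txnip, a gene raised by glucose, was the most like Pdk4 (r = 0.842), although Txnip itself did not change with cold detectably (log2 change 0.03 and -0.01). Pdp2 was most like G3bp2 (0.961) in values and Med7 (0.876) in deviations, and Pdk2 most like Abhd16a (0.957) and, in deviations, Agpat2 (0.870). Samples share their library, so depth and composition enter these values, which are given as descriptions.

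For Pdk1 the most similar genes were Acaca (r = 0.936), Acly (0.929) and Acss2 (0.928) in values, and Acaca (0.894), Fasn (0.884) and Acss2 (0.883) in deviations. Acaca encodes acetyl-CoA carboxylase, Fasn fatty acid synthase, Acly ATP citrate lyase and Acss2 acetyl-CoA synthetase, enzymes that make cytosolic acetyl-CoA or build it into fatty acids. These genes were picked for their likeness to Pdk1 and no list was tested. Control mice 1 and 6 at RT, which were low in Pdk1, had deviations of -0.50 and -0.65 in Acaca and -0.50 and -0.76 in Acss2 (log2). BAT-Mcu-KO mouse 5 at RT was at -0.72 in Pdk1, -1.33 in Acaca, -1.29 in Fasn and -1.18 in Acss2, and control mouse 5 at 4°C at -0.62, -0.99, -1.02 and -0.89, values that describe the likeness by which the genes were picked. With cold the log2 changes in control and BAT-Mcu-KO were -0.88 and -0.93 for Acaca, -0.73 and -0.68 for Fasn and -1.35 and -1.63 for Acss2, all past the limma test (adjusted p from 5.8e-05 to 0.0292). Acaca and Acss2 were also picked on values that include the step with cold. Their falls are thus part of that likeness and no separate support for the fall of Pdk1.

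**Figure D5:**
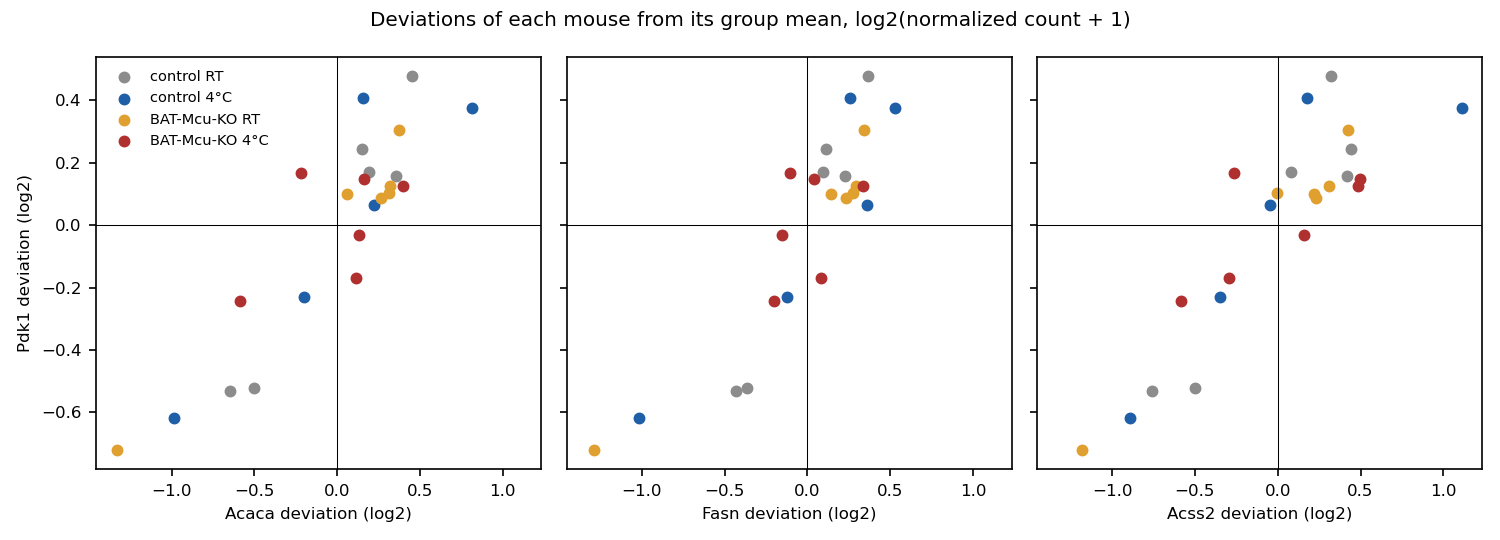
Deviation of Pdk1 from its group mean (vertical) against those of Acaca, Fasn and Acss2 (horizontal), in log2 units, 1 point per mouse. BAT-Mcu-KO mouse 5 at RT and control mouse 5 at 4°C lie at the lower left in all 3 panels; the plot is a description over 23 libraries with no test.

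Deviations from the group means were also compared among the 10 genes, as a description over 23 libraries that share depth and composition within each. For the core subunits r was 0.84 between Pdha1 and Pdhb, 0.75 between Pdhb and Dlat and 0.65 between Pdha1 and Dlat. Dlat had r = 0.80 with the phosphatase regulator Pdpr and 0.78 with the kinase Pdk1. Pdk4 was lower where Pdk2 was higher (r = -0.49). Pdk4 and Pdp2, the 2 genes called higher with cold, shared little of their variation within groups (r = 0.26).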

How the data were processed

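Total RNA from the BAT of 23 mice was made into Smart-seq2 libraries and read as pairs of 25 bases. Per the paper's methods the authors mapped reads with STAR (2.4.0j) to the mm10 build, counted unique exonic reads per gene of GENCODE M7 with HTSeq irrespective of strand, and required 8 or more reads in 6 or more libraries. The signal the authors deposited is the count of each gene divided by the DESeq2 size factor of the sample, for 14651 genes. A further deposited table holds the authors' DESeq2 fold changes, log2 fold changes and p-values by genotype, temperature and their interaction, and was not used. The number of columns left out was 0, and 19 symbols had been turned into dates.

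Values were whole multiples of the worth of 1 read (100.0% within 0.05), which gave back the reads and the depth. Interval widths and read numbers cover counting error and spread between mice, and PCR copies are not independent molecules. No library was a copy of another, as the lowest chi-square per degree of freedom over 55 pairs within groups was 8.59. Groups came from the sample labels. Each library is labelled as a separate animal.

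The 10 genes and all lists were chosen with earlier results of these data known. The main test was limma (3.58.1, R 4.3.3) on log2(normalized count + 1) with the trend, over all 23 samples with 1 mean per group (4 groups), and Benjamini-Hochberg adjustment over all 14651 genes. A gene was called at an adjusted p under 0.05, and fold changes are on this scale, which understates those of low genes. The log2 ratio of Pdp2 to Pdp1 was compared by exact permutation tests, two-sided. Levels between genes used kb of the union of exons (GENCODE M21, GRCm38), which 94.1% of symbols matched. Named were all 10 genes, Dld and Pdhx, list members called in both cold comparisons with a log2 change of at least 1, up to 4 a list, and the 3 genes most correlated with each of 4 regulators; 1 of these 3 for Pdk4 and others lower in rank are not printed, and some list members are not reported here. Alternatives were pseudocounts of 0.5 and 10, a minimum mean of 50, quantile, 75th percentile and TMM scaling, limma without trend, only the compared groups, a replicate block, edgeR (4.0.16) and DESeq2 (1.42.0) on recovered reads, the longest coding transcript, each mouse left out, and, chosen after seeing the data, without 5 libraries over 20000 in summed muscle markers or with these markers as covariate. The scripts were tested on simulated data. Figures were drawn with matplotlib 3.10.9 in Python 3.11.15 with pandas 2.3.3.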

Additional observations from a re-analysis of the deposited data

Results flagged for a closer look

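Of 60 sets of 5 or 6 mice checked for a single value far from the others (gap to the nearest value over the range of the group, against Dixon's 95% limits), 8 were marked, where chance marks about 1 in 20. Mouse 4 of BAT-Mcu-KO at 4°C was lowest in Pdha1, at 13470 normalized counts against 15815 to 16954 in the others, and in Pdpr, at 643 against 750.0 to 799. Mouse 5 of BAT-Mcu-KO at RT was lowest in Pdk1, at 823 against 1440.1 to 1677. Mouse 1 of BAT-Mcu-KO at 4°C was highest in Pdk3, at 39.4 against 25.6 to 30.7, a gene of few reads. Mouse 4 of control at RT was highest in Pdp1, at 125 against 72.5 to 88.9, with its muscle markers under the limit of 20000. Mouse 1 of control at 4°C was highest in Pdp2, at 3613 against 2309 to 2641, and in the ratio of Pdp2 to Pdp1 counts, at 33.1 against 19.4 to 21.1. Mouse 3 of control at RT had the lowest Pdk3 share of kinase transcripts, at 0.0936% against 0.146% to 0.160%.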

How the results depend on the processing

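Pdk4, Pdp2 and Pdk2 kept their direction and their calls in both genotypes under every alternative run, as did Pdk1 in BAT-Mcu-KO, and no alternative called any of the 10 genes between genotypes or for the interaction. The number called with cold in control was 3 without the libraries rich in muscle markers and 3 to 5 with each mouse left out. The Pdp2 to Pdp1 ratio depended on these libraries in part. Without them its log2 change with cold in control was 0.65 (exact permutation p = 0.0357), so that change held. In BAT-Mcu-KO, with 3 RT mice left, the change was 0.35 (exact permutation p = 0.179). The genotype difference at RT was then 0.085 and the interaction -0.30. Leaving out each mouse put the ratio's genotype difference at 4°C between -0.21 and 0.050, the latter without control mouse 1 at 4°C. The causes were not tested. With the longest coding transcript as length, kinase shares in control RT, control 4°C, BAT-Mcu-KO RT and BAT-Mcu-KO 4°C were 66.3%, 88.5%, 66.2% and 86.0% for Pdk4, 30.03%, 10.2%, 30.4% and 12.6% for Pdk2, and 3.51%, 1.27%, 3.27% and 1.30% for Pdk1.

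Mice with equal numbers are different animals, and the main test did not pair them. Their deviations correlated between -0.20 and 0.22, over 0.1 in 2 pairs, both of genotypes at 4°C. Blocking on the replicate number put the Pdp2 to Pdp1 change with cold in control at 0.51 (exact permutation p = 0.0625, the smallest that 5 pairs allow), called Pdp1 with cold in control (0.40, limma adjusted p = 0.0342), and called 7 genes in place of 11 between genotypes at 4°C. In the pairs of genotypes at 4°C 3 of 5 mice correlated best with their own number, and elsewhere none did. Whether the numbers mark a shared factor there was not tested.

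Of the wider lists, Dld and Pdhx had 1 called in control with a minimum mean of 50, the block or DESeq2, and 0 to 1 with each mouse left out. The cofactor list had 3 in BAT-Mcu-KO without the muscle-rich libraries and 3 to 5 with each mouse left out. Sister complexes had 3 in control with the compared groups alone or without those libraries and 3 to 5 with each mouse left out, and in BAT-Mcu-KO 4 with quantile normalization and 1 without those libraries. Fasting genes had 3 in control without those libraries. Between genotypes at RT and 4°C, 7 and 11 genes were called by limma, 3 and 2 with the compared groups alone, and 20 and 23 by DESeq2.

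Differences that changed sign had not passed the test before or after, Pdp1 included. With cold in control, Dlat was -0.082 with 75th percentile scaling, Pdk3 0.032 with quantile normalization and 0.22 without the muscle-rich libraries. With cold in BAT-Mcu-KO, Pdhb was 0.054, Pdk3 -0.017 and Pdpr -0.029 without those libraries, and Pdpr -0.069 with quantile and -0.036 with 75th percentile scaling. At RT, Pdha1 was -0.020 with 75th percentile scaling, and Pdha1 -0.098, Pdk1 -0.030 and Pdp1 -0.11 without those libraries. At 4°C, Pdha1 was -0.042 with quantile normalization, -0.00013 with edgeR and -9.6e-05 with DESeq2, and Pdpr -0.00074 with TMM, -0.0047 with edgeR, -0.0027 with DESeq2 and -0.0036 with the muscle covariate. For the interaction, Pdha1 was -0.059 with quantile normalization, -0.0032 with the block and -0.020 with edgeR and -0.021 with DESeq2, Pdk2 0.051 with 75th percentile scaling and 0.017 without those libraries, Pdk3 -0.24 and Pdp1 0.35 without them. Each mouse left out in turn gave -0.070 to 0.11 for Dlat and -0.27 to 0.11 for Pdk3 with cold in control, -0.014 to 0.061 for Pdpr with cold in BAT-Mcu-KO, -0.036 to 0.10 for Pdha1 and -0.040 to 0.21 for Pdk1 by genotype at RT, -0.084 to 0.086 for Pdha1, -0.23 to 0.024 for Pdk1 and -0.056 to 0.051 for Pdpr by genotype at 4°C, and -0.093 to 0.077 for Pdha1, -0.080 to 0.062 for Pdk2 and -0.15 to 0.020 for Pdp1 for the interaction. Pdha1 was called with cold in control with 75th percentile scaling (-0.31, limma adjusted p = 0.0311) and in BAT-Mcu-KO without mouse 5 at RT (-0.29, 0.0291), and Pdp1 in control without mouse 4 at RT (0.47, 0.0196) or with a minimum mean of 50 (0.0494) and in BAT-Mcu-KO without mouse 3 at RT (0.39, 0.0475). Depth limits Pdk3 and Pdp1, with at least 8 and 54 reads per library.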
